A study of Mus musculus with 14 samples.

Results

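Ppara and 8 genes that it is known to switch on in the fasted liver were followed across mouse livers with and without autoimmune hepatitis (AIH). The genes were chosen by name (Ppara, Vnn1, Cyp4a10, Cyp4a14, Fgf21, Pdk4, Angptl4, Plin2 and Fabp1) and matched by symbol to Ensembl gene IDs, which gave 9 of the 51912 gene rows in the files. All 9 passed the filter on low counts, which left 14638 genes for the tests. RNA of a small piece of the left liver lobe was sequenced in 14 libraries from untreated mice, all 20 weeks old and all carrying 2 floxed copies of Tet2, the gene for a dioxygenase acting on 5-methylcytosine of DNA. The 4 control libraries came from healthy littermates labelled Tet2fl/fl cre-. The 5 asymptomatic and the 5 AIH libraries share the genotype Tet2fl/fl vav cre+ and differ in the labels only in whether hepatitis had arisen by itself. The vav promoter drives the recombinase in blood-forming cells and their progeny, so hepatocytes, in which the 9 genes are mainly studied, are not its intended target. Whole liver Tet2 therefore says little about the deletion: its median was 11.2 CPM (counts scaled to a fixed library size) in controls, 6.52 in asymptomatic livers and 7.88 in AIH livers, and the groups overlapped. The labels do not state that each library is a separate animal, so p-values measure the spread between these libraries.

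PPARα, the protein made from Ppara, is a nuclear receptor that binds fatty acids and, paired with a retinoid X receptor, sits on DNA repeats near genes for the uptake, storage and burning of fat. In a fasting liver, fatty acids released from fat tissue activate it, and it then switches on oxidation in mitochondria and peroxisomes, the making of ketone bodies, and the hormone Fgf21. Food, fasting, sex and the time of day are all known to move these genes in mouse liver.

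Libraries held 15.97 to 18.92 M counts (M, mega) in genes, and 3.23% to 9.27% of reads were not aligned. Several libraries stood apart in ways that touch the 9 genes. The log2 ratio of Dbp to Arntl, a pair of clock genes that peak at opposite times of day, was 7.46, -4.44, 6.76 and -2.84 in controls 1 to 4. In asymptomatic livers 1 to 5 it was 5.69, 1.41, 5.87, 6.02 and 4.65, and in AIH livers 1 to 5 it was 2.62, 5.70, 4.15, -1.85 and 2.91. Sex is not in the labels, and by Xist and 4 Y-linked genes the controls were 2 of each sex, all 5 asymptomatic livers were male, and 4 of the 5 AIH livers were female. The share of reads not aligned was 8.31%, 4.93%, 7.80%, 8.05% and 9.27% in asymptomatic livers 1 to 5 and lay between 3.23% and 6.54% in AIH livers. Asymptomatic liver 2 was thus separated from the other 4 by both the clock ratio and the unaligned reads. Library numbers in the titles of the AIH samples all follow those of the other groups, so an order of preparation, if they give one, and AIH cannot be told apart.

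The sequences just before the start sites of the targets are shown first, because PPARα is known to bind direct repeats of the half-site AGGTCA spaced by 1 base. RefSeq promoter windows of GRCm38.p6 (250 bases before to 50 after each start) were matched for 5 of the 9 genes: Ppara, Fgf21, Pdk4, Plin2 and Fabp1. Distances are given from the start of the RefSeq window, which can differ from the gene positions given below. The 250 bases of Ppara (chr15:85735526-85735775) lie inside its gene span, which begins at 85734983. Those of Fabp1 end at 71199878, past its gene start at 71199827. Both strands were searched, and mismatches were counted over the 12 positions of the half-sites. Fabp1 and Plin2 held the closest matches, and their 250 bases before the start are printed 5′ to 3′ on the strand of the gene, with the matching stretch in capitals. The Fabp1 sequence is chr6:71199629-71199878 (plus strand), and the Plin2 sequence is chr4:86670060-86670309 (minus strand).
Fabp1: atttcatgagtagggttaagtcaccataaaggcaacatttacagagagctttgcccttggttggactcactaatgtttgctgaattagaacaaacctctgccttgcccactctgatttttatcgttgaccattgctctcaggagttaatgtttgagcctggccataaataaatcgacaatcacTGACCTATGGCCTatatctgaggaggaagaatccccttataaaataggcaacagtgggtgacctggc
Plin2: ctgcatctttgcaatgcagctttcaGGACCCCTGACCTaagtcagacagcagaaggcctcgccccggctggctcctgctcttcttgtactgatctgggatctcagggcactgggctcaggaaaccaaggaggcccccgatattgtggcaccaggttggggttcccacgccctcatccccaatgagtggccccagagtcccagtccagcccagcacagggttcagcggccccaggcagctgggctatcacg
In Fabp1 the stretch reads AGGCCATAGGTCA on the opposite strand, 1 mismatch from the repeat, with its centre 61 bases before the start. Of all 32851 windows of the same length, 0.554% hold a match with up to 1 mismatch. In Plin2 it reads AGGTCAGGGGTCC on the opposite strand, with 2 mismatches and its centre 219 bases before the start, and 3.86% of all windows hold a match at least as close. The best stretches in Ppara, Fgf21 and Pdk4 had 4 mismatches, as close as 79.8% of all windows. These matches are descriptions of letters. Up to 2 mismatches were also found for 2 of 12 receptor partners with a window (Rxra and Creb3l3), 1 of 13 genes of lipolysis and ligand supply (Cd36), 2 of 15 of mitochondrial oxidation (Slc25a20 and Etfa), 1 of 12 of peroxisomal oxidation (Acot12) and 1 of 6 thioesterases (Acot4), against 4.40% of all genes with a window. Lists of other kinds held such matches too, with 2 of 15 inflammatory signals, 1 of 10 hepatocyte markers, 1 of 13 clock genes, 1 of 14 lipogenic genes and 1 of 21 other fasting genes, while none was found among 11 lipid droplet proteins, 7 other Cyp4 hydroxylases and 10 relatives of the targets.

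In livers with AIH, the receptor Ppara, the fatty acid carrier Fabp1 and the enzyme Vnn1 fell against control livers. Ppara was 2.84-fold, Vnn1 7.91-fold and Fabp1 1.91-fold lower, and no AIH library reached the lowest control in any of these 3 genes. Among all genes tested, 6.08% were called lower and 15.6% higher in AIH than in control livers, and 6.61% had every AIH library below every control library. The other 6 targets were not called. Among these, Cyp4a10 and Cyp4a14 had the largest fitted differences of the 9 genes but also the largest spread between controls. Over the 9 genes the median log2 fold change was -1.46, against -0.0134 over all genes tested. This median was not particular to AIH: in asymptomatic against control livers it was -1.4, against -0.000364 over all genes, with none of the 9 called. In AIH against asymptomatic livers it was -1.09. Within a sex fewer libraries remained: in females Vnn1 alone was called, with Ppara at -1.56 (edgeR adjusted p = 0.129) and Fabp1 at -1.10 (adjusted p = 0.0765). In males, where AIH is 1 library whose spread was taken from the other groups, none was called, with Ppara at -1.41 (adjusted p = 0.0901), Vnn1 at -1.69 (adjusted p = 0.682) and Fabp1 at -0.45 (adjusted p = 0.671).

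Ppara (chromosome 15, 85734983 to 85802819, plus strand, GRCm38) was measured at 215, 162, 244 and 191 CPM in controls 1 to 4. It stood at 162, 202, 117, 159 and 122 CPM in asymptomatic livers 1 to 5 and at 90.3, 20.6, 68.2, 77.4 and 101 CPM in AIH livers 1 to 5. The AIH libraries lay below all 9 others, with AIH liver 2 the lowest, while asymptomatic and control libraries overlapped. AIH differed from control by -1.51 ± 0.33 on the log2 scale (SE, here and below; edgeR quasi-likelihood test with Benjamini-Hochberg adjustment over all genes tested, adjusted p = 0.00501) and from asymptomatic livers by -1.09 ± 0.32 (adjusted p = 0.0179). Asymptomatic livers differed from control by -0.41 ± 0.33 (adjusted p = 0.674). Ppara was not among the genes that varied most within controls: its highest control was 1.51 times its lowest, and the controls with a low clock ratio, 2 and 4, lay below controls 1 and 3, the opposite of their place for the 7 targets other than Fabp1.

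Fabp1 (chromosome 6, 71199827 to 71205023, plus strand) encodes the liver's abundant cytosolic fatty acid-binding protein, which also carries ligands to PPARα. Control livers held 4352, 4688, 3447 and 3927 CPM of Fabp1, asymptomatic livers 5369, 3958, 6227, 4623 and 3595 CPM, and AIH livers 2084, 2445, 1834, 3067 and 1338 CPM. Every AIH library was below every library of both other groups. The log2 fold change was -0.93 ± 0.23 against control (edgeR adjusted p = 0.0106) and -1.14 ± 0.22 against asymptomatic livers (adjusted p = 0.00167). Between asymptomatic and control livers it was 0.21 ± 0.23 (adjusted p = 0.774). Like Ppara, Fabp1 was even within controls, where the highest library was 1.36 times the lowest. With size factors from 15 hepatocyte markers in place of all genes, a setting chosen after the data were seen, the fall against control was not called (-0.60, adjusted p = 0.0677).

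Vnn1 (chromosome 10, 23894688 to 23905343, plus strand) encodes a pantetheinase on the cell surface that releases cysteamine and pantothenic acid. Its levels were 84.1, 525, 141 and 200 CPM in controls 1 to 4. Asymptomatic livers held 27.1, 192, 72.5, 31.4 and 17.7 CPM and AIH livers 45.9, 26.6, 23.1, 44.6 and 9.999 CPM. All AIH libraries lay below all controls, and 4 of the 5 asymptomatic libraries did too, with asymptomatic liver 2 the exception. The log2 fold change of AIH against control was -2.98 ± 0.71 (edgeR adjusted p = 0.00777). Asymptomatic livers differed from control by -1.80 ± 0.68 (adjusted p = 0.425), and AIH from asymptomatic livers by -1.18 ± 0.65 (adjusted p = 0.185).

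**Figure D1:**
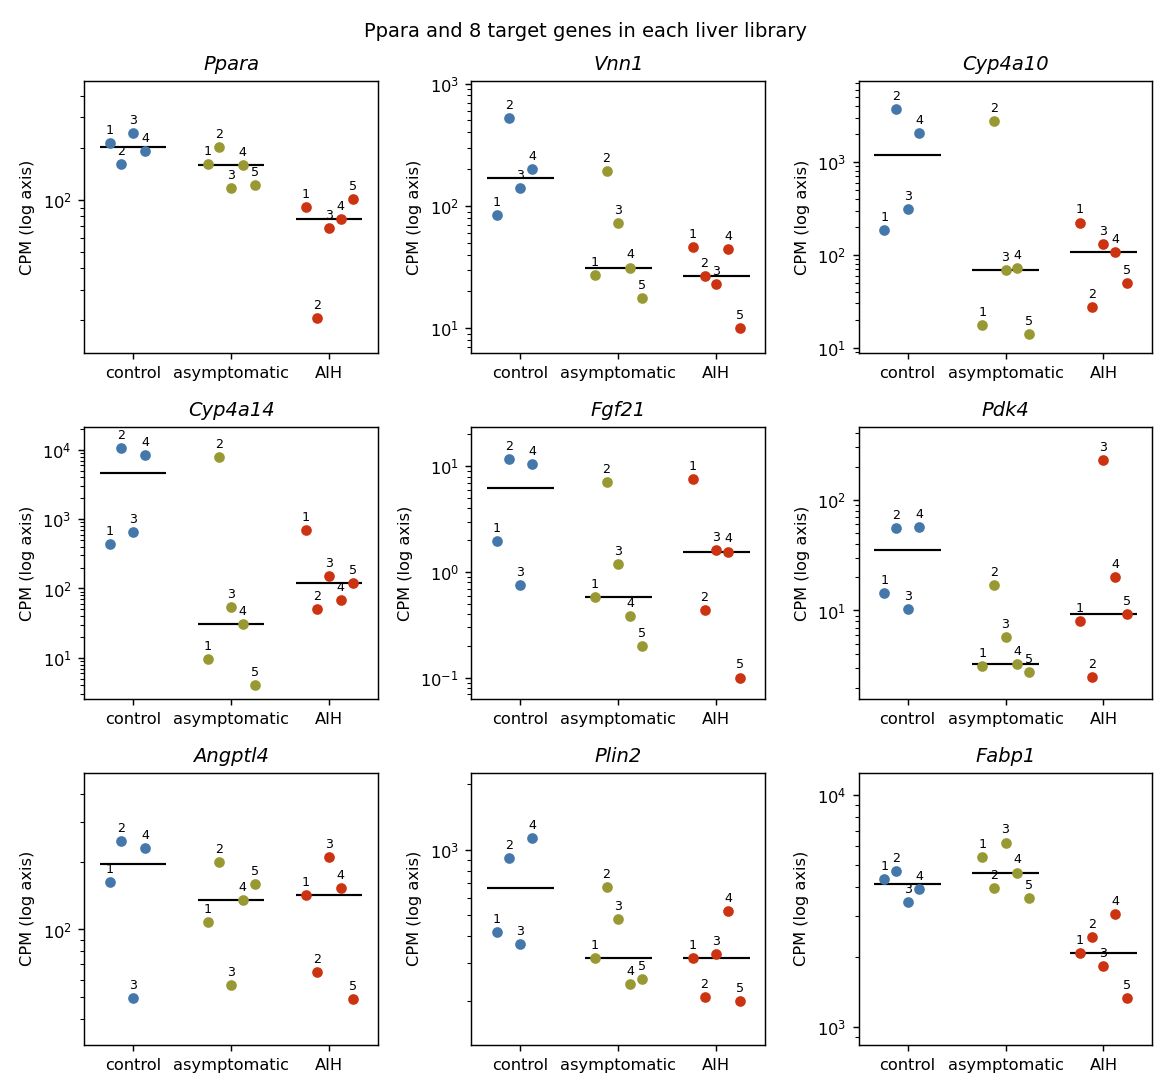
Level of each of the 9 genes in TMM-scaled CPM (log axis) in the 4 control, 5 asymptomatic and 5 AIH libraries. Each point is a library with its replicate number, and each line is a group median. AIH points lie below all others for Ppara and Fabp1, while controls 2 and 4 and asymptomatic liver 2 stand at the top for Cyp4a10, Cyp4a14 and Plin2.

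Cyp4a10 and Cyp4a14 encode microsomal enzymes that hydroxylate the far end of fatty acids and are classical readouts of PPARα in rodents. The genes lie 22121 bases apart on chromosome 4 (Cyp4a10 at 115518264 to 115533649 on the plus strand, Cyp4a14 at 115486200 to 115496142 on the minus strand), and they belong to a family of close copies, so reads may have been lost or shared between them. Cyp4a10 was measured at 184, 3712, 312 and 2049 CPM in controls 1 to 4, at 17.8, 2784, 69.2, 72.4 and 13.97 CPM in asymptomatic livers and at 223, 27.7, 132, 107 and 50.2 CPM in AIH livers. Cyp4a14 followed the same order in controls, but not throughout the other groups, with 434, 10738, 651 and 8541 CPM in controls, 9.56, 7851, 54.4, 30.6 and 4.06 CPM in asymptomatic livers and 698, 51.3, 154, 68.7 and 119 CPM in AIH livers. Controls 2 and 4 and asymptomatic liver 2 formed a high set in both genes, and these are 3 of the 4 libraries with a clock ratio below 2. The fourth, AIH liver 4, was not high. AIH against control gave -3.86 ± 1.44 for Cyp4a10 (edgeR adjusted p = 0.0694) and -4.54 ± 1.88 for Cyp4a14 (adjusted p = 0.102). Both were called lower when only those 2 groups were fitted (adjusted p = 0.0155 and 0.0197) and by DESeq2 (adjusted p = 0.0245 and 0.0181).

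Within the libraries of each kind of clock ratio, the Cyp4a values read differently, and this division was chosen after the data were seen. Among the 10 libraries with a ratio above 2, which keep only controls 1 and 3, the AIH against control difference of Cyp4a14 shrank to -1.12 (edgeR adjusted p = 0.488). Among the 4 libraries below 2 (controls 2 and 4, asymptomatic liver 2 and AIH liver 4), it was -7.14 for Cyp4a14 and -4.76 for Cyp4a10. These values compare 1 AIH library with 2 controls and are given with no test. Against asymptomatic livers, Cyp4a14 turned direction with the libraries used: it was -2.87 over all libraries (adjusted p = 0.223), 3.32 among those with a ratio above 2 (adjusted p = 0.0165) and 3.15 without asymptomatic liver 2 (adjusted p = 0.0481). Cyp4a10 moved likewise, from -2.45 to 1.32 without asymptomatic liver 2, with adjusted p = 0.177 and 0.258. With the clock ratio as a term over all libraries, AIH against control gave -2.54 for Cyp4a10 (adjusted p = 0.103) and -2.91 for Cyp4a14 (adjusted p = 0.182). With sex as a term the values were -3.94 (adjusted p = 0.0849) and -4.96 (adjusted p = 0.117), and the high controls were 1 female and 1 male. The part of feeding in these values was not tested.

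Plin2 and Angptl4 act on stored and circulating fat. Plin2 (chromosome 4, 86648386 to 86670060, minus strand) coats lipid droplets. Its levels were 415, 914, 369 and 1134 CPM in controls, 316, 673, 480, 241 and 253 CPM in asymptomatic livers and 316, 209, 329, 521 and 201 CPM in AIH livers. The 2 highest controls were again 2 and 4, and the groups overlapped. AIH against control gave -1.17 ± 0.40 (edgeR adjusted p = 0.0510), just outside the threshold. With RLE factors in place of TMM (adjusted p = 0.0471) or with the clock ratio as a term (-0.94, adjusted p = 0.0167), Plin2 was called lower. DESeq2 and limma-voom called it lower too (adjusted p = 0.0162 and 0.0217). Other settings did not: library totals alone (-1.04, edgeR adjusted p = 0.0783), sex as a term (-1.04, adjusted p = 0.0833) and only the 2 groups fitted (adjusted p = 0.0642).

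Angptl4 (chromosome 17, 33773750 to 33781830, minus strand) encodes a secreted inhibitor of lipoprotein lipase. Controls held 163, 248, 49.6 and 229 CPM of Angptl4, asymptomatic livers 107, 199, 56.7, 135 and 159 CPM, and AIH livers 143, 65.1, 209, 152 and 49.3 CPM. The groups overlapped throughout, and the lowest control was as low as the lowest AIH library. The log2 fold changes were -0.48 ± 0.48 in AIH against control (edgeR adjusted p = 0.525) and -0.39 ± 0.48 in asymptomatic against control (adjusted p = 0.802).

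Fgf21 and Pdk4 mark the whole-body and glucose-sparing side of the fasting response. Fgf21 (chromosome 7, 45613886 to 45615490, minus strand) encodes a hormone sent out by the liver, and it was the scarcest of the 9 genes. It was measured at 1.99, 11.8, 0.763 and 10.5 CPM in controls, at 0.585, 7.06, 1.19, 0.388 and 0.200 CPM in asymptomatic livers and at 7.59, 0.437, 1.63, 1.57 and 0.101 CPM in AIH livers. The lowest values rest on 3 counts in asymptomatic liver 5 and 2 counts in AIH liver 5. High libraries were found in all 3 groups, namely controls 2 and 4, asymptomatic liver 2 and AIH liver 1. AIH against control gave -1.46 ± 1.09 (edgeR adjusted p = 0.371), and it was 0.79 (adjusted p = 0.708) among libraries with a clock ratio above 2.

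Pdk4 (chromosome 6, 5483351 to 5496309, minus strand) encodes a kinase that shuts off pyruvate dehydrogenase and so spares glucose. Its levels were 14.4, 56.1, 10.3 and 56.4 CPM in controls, 3.12, 16.9, 5.77, 3.30 and 2.79 CPM in asymptomatic livers and 7.97, 2.53, 229, 20.1 and 9.24 CPM in AIH livers. AIH liver 3 alone stood above every other library, more than 10 times the next AIH value. Pdk4 rose in AIH against asymptomatic livers by 3.07 ± 1.08 (edgeR adjusted p = 0.0440), but without AIH liver 3 the value was 0.63 (adjusted p = 0.531). The call was also lost without asymptomatic liver 1, 3, 4 or 5 (adjusted p = 0.0769 to 0.0957), when only the 2 groups were fitted (adjusted p = 0.0650) and with limma-voom (1.63, adjusted p = 0.156). Against control it was 0.64 ± 1.06 (adjusted p = 0.70999) with AIH liver 3 and -1.78 (adjusted p = 0.115) without it.

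**Figure D2:**
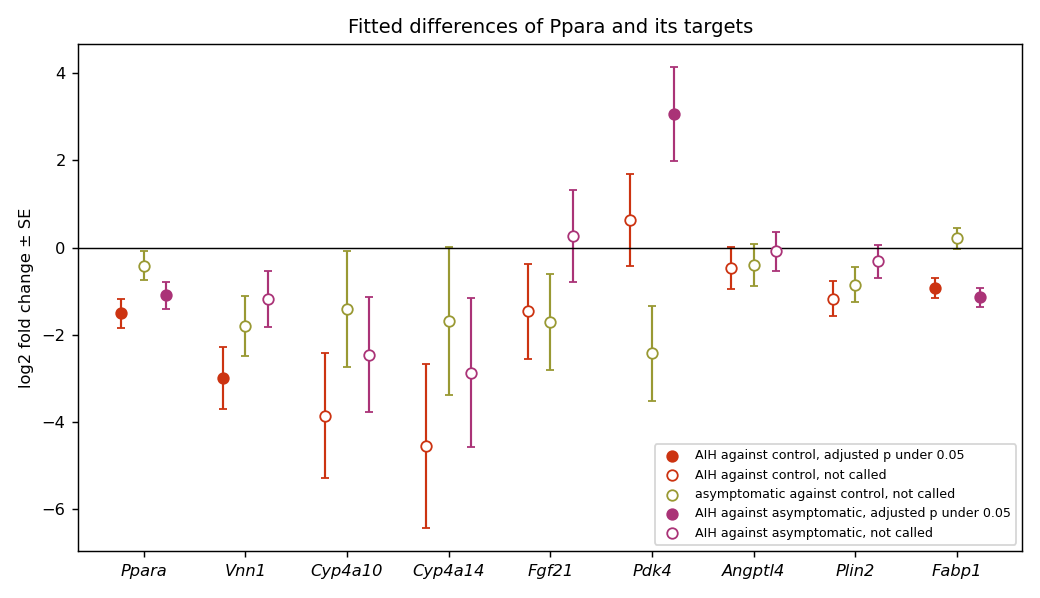
Fitted log2 fold change of each gene in the 3 comparisons, with bars of 1 SE from the edgeR quasi-likelihood fit of all 14 libraries. Filled points have an adjusted p under 0.05, which holds for Ppara, Vnn1 and Fabp1 in AIH against control, for Ppara, Fabp1 and Pdk4 in AIH against asymptomatic, and for no gene in asymptomatic against control.

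Levels can be set side by side only per length of exon. In control livers the median was 7485 CPM per kb of exon for Fabp1, 1767 for Cyp4a14, 560 for Cyp4a10, 189 for Plin2, 70.7 for Vnn1, 55.3 for Angptl4, 52.9 for Ppara, 10.03 for Pdk4 and 6.57 for Fgf21. Apart from Fabp1, whose lowest control (6234) was above the highest of any other gene, neighbours in this order overlapped between control libraries in most cases: Cyp4a14 (167 to 4128) with Cyp4a10 (87.1 to 1760), Vnn1 (34.8 to 217) with Angptl4 (13.999 to 69.96), and Angptl4 with Ppara (42.2 to 63.6). Ppara in turn was above Pdk4 in every control. In asymptomatic livers the medians of Cyp4a10 (32.8) and Cyp4a14 (11.8) stood below that of Ppara (41.5), and in AIH livers above it, at 50.6 and 45.7 against 20.2 CPM per kb.

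In asymptomatic livers none of the 9 genes was called against control, and the test called 0% of all genes. Before adjustment, 10.5% of all genes had an edgeR p under 0.05, and Vnn1 and Pdk4, both with values below control, were the members among them. DESeq2 called 0.746% of genes and none of the 9. Limma-voom with quality weights called 8.87% of genes and 5 of the 9 lower: Vnn1 (-2.80), Cyp4a10 (-4.76), Cyp4a14 (-7.27), Pdk4 (-3.15) and Plin2 (-1.27). In that fit asymptomatic liver 2, the high library of its group, carried a weight of 0.534. Liver 3, one of the low libraries, carried 0.557, while livers 1, 4 and 5 carried 1.91, 2.19 and 1.56. Controls 2 and 4, which were above the other controls for these 5 genes, carried 1.981 and 1.597. Controls 1 and 3 carried 1.059 and 0.8058. The part of the weights of either group in the 5 calls was not tested. The comparison shares its control libraries with AIH against control.

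AIH against asymptomatic livers gave lower Ppara and Fabp1 and higher Pdk4 among the 9 genes, where 10.7% of all genes were called lower and 19.1% higher. Ppara and Fabp1 were also the 2 of the 9 genes in which every AIH library lay below every asymptomatic library, as 4.65% of all genes did. All 3 calls were lost with sex as a term (Pdk4 2.54, edgeR adjusted p = 0.327, Fabp1 -0.90, adjusted p = 0.0670, and Ppara -1.04, adjusted p = 0.178) and with the share of unaligned reads as a term (Pdk4 1.23, adjusted p = 0.814, Fabp1 -0.82, adjusted p = 0.268, and Ppara -1.21, adjusted p = 0.245). With library totals alone Ppara was just outside the threshold (-0.89, adjusted p = 0.0503). Of 15 hepatocyte markers 7 were lower and 1 higher in this comparison (median -0.48), and all 16 leukocyte markers were higher. All asymptomatic livers were male and 4 of 5 AIH livers female, so sex and AIH can hardly be told apart in this comparison.

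Libraries of 1 group differed among themselves in the same way across most of the 9 genes. Asymptomatic liver 2 was the highest of its group for 8 of the 9 genes, all but Fabp1, against 26.6% of all genes tested. Controls 2 and 4 were both above controls 1 and 3 for 7 of the 9, all but Ppara and Fabp1, against 21.9% of all genes. Both orders held for 7 of the 9 and for 8.64% of all genes. They were noticed after the values were seen and carry no test. Among genes of the pathway, both orders held for 13 of 19 genes of mitochondrial oxidation and ketogenesis and for 10 of 16 of peroxisomal oxidation. Shares were lower for lipolysis and ligand supply (6 of 15), lipid droplet proteins (4 of 10) and thioesterases (2 of 6). They were lower too for receptor partners (3 of 15) and other Cyp4 hydroxylases (2 of 9). Both orders held for 4 of 15 clock genes, 2 of 21 other fasting genes and 1 of 15 hepatocyte markers. Ehhadh, a peroxisomal enzyme, is an example of both orders. It held 450, 3648, 513 and 3832 CPM in controls and 251, 2964, 283, 253 and 209 CPM in asymptomatic livers.

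**Figure D3:**
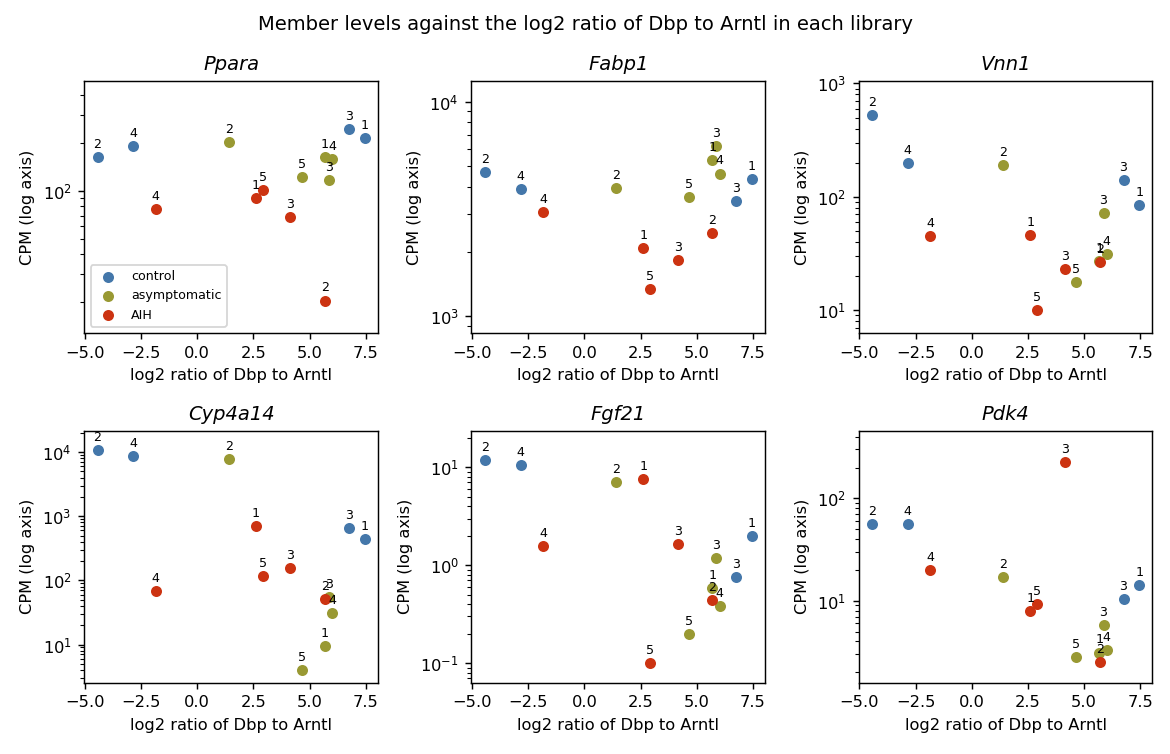
Level of 6 of the genes (TMM-scaled CPM, log axis) against the log2 ratio of Dbp to Arntl in each library, numbered by replicate. Controls 2 and 4, at ratios of -4.44 and -2.84, and asymptomatic liver 2, at 1.41, are the highest for Cyp4a14, while AIH liver 4, at -1.85, stays low at 68.7 CPM.

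Among partners of the receptor, Rxra (the retinoid X receptor that pairs with PPARα) fell in AIH against control by 0.53 ± 0.15 on the log2 scale (edgeR adjusted p = 0.0232). Creb3l3, a fasting transcription factor that works with PPARα on Fgf21, fell by 0.80 ± 0.24 (adjusted p = 0.0285), and the corepressor Ncor1 fell by 0.79 ± 0.26 (adjusted p = 0.0457). Ppard, a related receptor, rose by 0.58 ± 0.19 (adjusted p = 0.0447). Ppargc1a (-0.14, adjusted p = 0.801) and Pparg (0.27, adjusted p = 0.673) were not called. In all, 3 of 15 partners and coregulators fell, 1 rose, and the list's median was -0.17. These calls depended on the setting. No fall was called with library totals alone or with size factors from hepatocyte markers, where the median turned to 0.12. Among libraries with a clock ratio above 2, no gene of the list was called. There Rxra was at -0.42 (adjusted p = 0.211), Creb3l3 at -0.53 (adjusted p = 0.257), Ncor1 at -0.78 (adjusted p = 0.107) and Ppard at 0.74 (adjusted p = 0.0890). With sex as a term Ncor1 (-0.70, adjusted p = 0.0796) and Ppard (0.47, adjusted p = 0.128) were not called.

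Supply of fatty acids to the receptor and the liver cell was mixed. Of 15 genes of lipolysis and ligand supply, 5 fell and 1 rose (median -0.42). Slc27a2, a transporter and acyl-CoA synthetase for long fatty acids, fell by 1.38 ± 0.27 (edgeR adjusted p = 0.00198), from 1362, 2297, 1303 and 2225 CPM in controls to 818, 483, 665, 952 and 526 CPM in AIH livers with no overlap. G0s2, an inhibitor of the lipase Atgl, fell by 2.105 ± 0.45, and Mgll, which splits monoglycerides, fell by 1.68 ± 0.36. Among libraries with a clock ratio above 2, neither G0s2 (-1.63, adjusted p = 0.0874) nor Mgll (-1.03, adjusted p = 0.0660) was called. In that setting 2 of the 15 genes fell and 1 rose. Lpl, the lipoprotein lipase that Angptl4 inhibits, rose by 2.36 ± 0.38 (adjusted p = 0.000642).

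Most oxidation genes were lower in AIH than in control livers. In mitochondria and ketogenesis 17 of 19 genes fell, 1 rose and 1 was not called (median -1.01). Cpt1a, the gate of fatty acids into mitochondria, fell by 1.08 ± 0.30 (edgeR adjusted p = 0.0190) from 721, 937, 598 and 915 CPM in controls to 554, 186, 385, 379 and 376 CPM in AIH livers. Acadm, a dehydrogenase for medium chains, fell by 1.44 ± 0.32, and Eci1, an isomerase, fell by 1.29 ± 0.25. Ucp2, an inner membrane carrier abundant in macrophages, rose by 1.93 ± 0.29 (adjusted p = 0.000387). In peroxisomes 9 of 16 genes fell and none rose (median -1.09), among them Ehhadh (-3.15 ± 0.91, adjusted p = 0.0237), Decr2 (-1.09 ± 0.21) and Acaa1b (-2.42 ± 0.57). The counts of falls shrank, with medians still below 0, to 6 of 19 and 7 of 16 with size factors from hepatocyte markers (medians -0.67 and -0.73), and to 6 of 19 and 6 of 16 among libraries with a clock ratio above 2 (medians -0.71 and -0.92). In both settings Cpt1a was not called (adjusted p = 0.0793 and 0.11003), and in the latter Ehhadh was not either (-1.23, adjusted p = 0.0799). Against asymptomatic livers fewer genes fell in AIH, 4 of 19 and 4 of 16 (medians -0.59 and -0.64), where 10.7% of all genes did. None fell there with hepatocyte marker scaling or with sex as a term. Asymptomatic against control medians were -0.49 and -0.45, with no gene called. Cpt1a overlapped between AIH and asymptomatic livers, the latter at 480, 933, 405, 457 and 454 CPM.

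Acyl-CoA thioesterases, which free fatty acids from coenzyme A, had a median of -2.03 over 6 tested genes, of which 2 fell. In asymptomatic against control livers their median was -1.87, and in AIH against asymptomatic livers -0.0497, with no gene called in either. The falls that follow are those of AIH against control. Acot1 fell by 3.79 ± 1.24 (edgeR adjusted p = 0.0413) and Acot4 by 1.96 ± 0.44 (adjusted p = 0.00562), and among libraries with a clock ratio above 2 Acot1 was at -0.78 (adjusted p = 0.564). Among 9 other Cyp4 hydroxylases only Cyp4f15 fell (-0.66 ± 0.21, adjusted p = 0.0406), where 6.08% of all genes were called lower. The Cyp4f15 call was lost with library totals alone (-0.50, edgeR adjusted p = 0.149) and hepatocyte marker scaling (-0.32, adjusted p = 0.365). It was also lost with sex as a term (-0.62, adjusted p = 0.0756) and with a clock ratio above 2 (-0.82, adjusted p = 0.0980), although 3 of the 9 genes fell in that last setting. The near relatives Cyp4a31 (-1.28, adjusted p = 0.488), Cyp4a32 (-0.99, adjusted p = 0.337) and Cyp4a12a (-1.10, adjusted p = 0.718), the last a gene known for its male bias, were not called. Of 10 lipid droplet proteins 4 fell and 1 rose (median -0.85), with Cidec, which fuses droplets, at -3.49 ± 1.03 (adjusted p = 0.0250), Fitm2, needed for droplets to bud, at -1.42 ± 0.29 and Hilpda, a lipase inhibitor, higher by 2.39 ± 0.70. Cidec overlapped between the groups, with control 3 at 0.763 CPM and AIH liver 3 at 5.89 CPM. Its call was lost with sex as a term (-2.48, adjusted p = 0.147) and among libraries with a clock ratio above 2 (-3.54, adjusted p = 0.112). The Hilpda call was lost with the sex term (2.04, adjusted p = 0.120). Plin5, a relative of Plin2, was at -0.71 ± 0.78 (adjusted p = 0.564).

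Relatives and receptors of the target genes went both ways, with 4 of 15 higher and 3 lower (median -0.39). Pdk3 rose by 3.13 ± 0.36 (edgeR adjusted p = 4.36e-05) and Fabp4, a fatty acid-binding protein of fat cells and macrophages, by 3.15 ± 0.56, while Fabp2 fell by 1.46 ± 0.35 and Vnn3 by 0.78 ± 0.26. Pdk1 (-0.52, adjusted p = 0.229) and the Fgf21 coreceptor Klb (-0.53, adjusted p = 0.199) were not called. Of 21 other fasting genes 2 fell, Pcx (-0.82 ± 0.19) and Fbp1 (-0.58 ± 0.17), both of glucose making, and none rose (median 0.15), whereas with hepatocyte marker scaling 2 rose and none fell. Pck1, the classical enzyme of that pathway, was at -0.61 ± 0.24 (adjusted p = 0.0832). Of 18 lipogenic genes of the fed state 3 fell, Mogat1 (-2.82 ± 0.57), Fads2 (-1.28 ± 0.32) and Me1 (-1.47 ± 0.49), and none rose (median -0.61). With a clock ratio above 2, 7 of the 18 fell (median -1.22). Me1 was not called with library totals alone (edgeR adjusted p = 0.0697), hepatocyte marker scaling (adjusted p = 0.0892) or sex as a term (adjusted p = 0.068). Vnn3 and Fbp1 were not called with library totals alone (adjusted p = 0.0984 and 0.122) or with a clock ratio above 2 (adjusted p = 0.0714 and 0.0613).

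**Figure D4:**
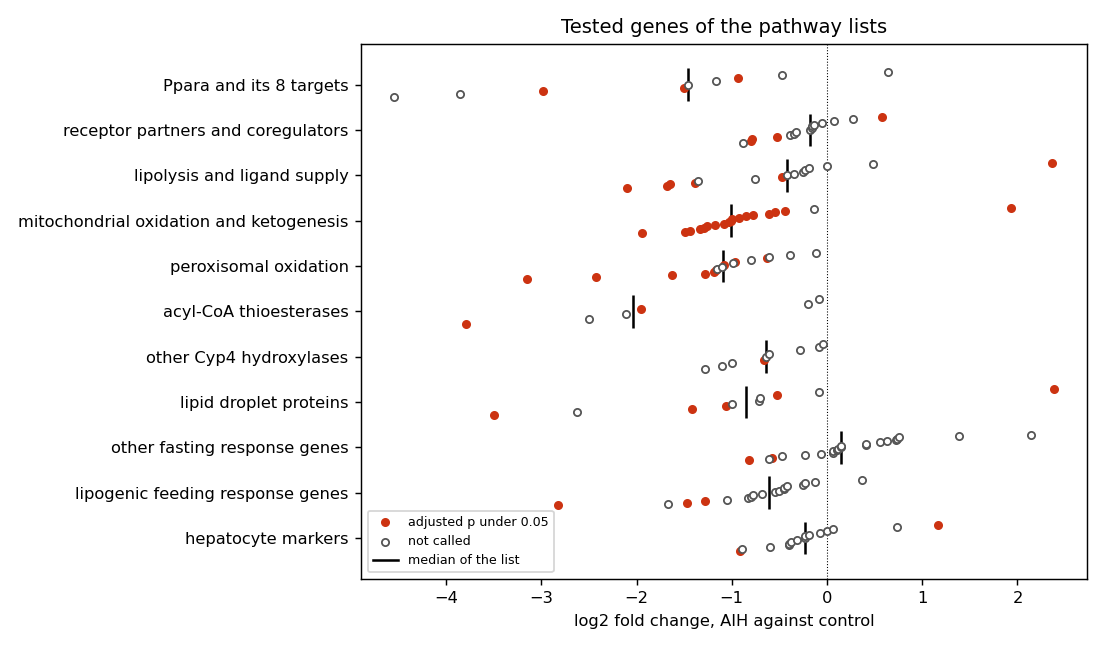
Log2 fold change of AIH against control for every tested gene of 11 lists, one row per list. Filled points have an adjusted p under 0.05 in the edgeR fit, and the vertical bar is the median of the list: -1.46 for Ppara and its targets, -1.01 for mitochondrial oxidation and ketogenesis, and -0.23 for hepatocyte markers.

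The make-up of the tissue moved with AIH. All 16 leukocyte markers were higher in AIH than in control livers (median 4.13), and their summed level ranged from 1242 to 2972 CPM in AIH, from 239 to 314 CPM in asymptomatic and from 201 to 420 CPM in control livers. Mpo was at 0 in 3 controls and 3 asymptomatic livers, and no other leukocyte marker was at 0 in a library. Higher in AIH were also 6 of 8 resident macrophage, 5 of 10 stellate and fibroblast, 3 of 8 endothelial and 1 of 7 cholangiocyte markers, none lower. Of all genes tested, 15.6% were called higher, so the cholangiocyte count is near that share. Its 1 gene, Spp1, was not called with sex as a term (1.97, edgeR adjusted p = 0.127) or with a clock ratio above 2 (2.41, adjusted p = 0.160). Summed cholangiocyte markers were at 918 CPM in AIH liver 3 and from 87.3 to 132 CPM in the other AIH livers. Hepatocyte markers were present in every library: 1 of 15 fell (Cyp2e1, -0.91 ± 0.16, edgeR adjusted p = 0.000934), 1 rose (Trf, 1.17 ± 0.33) and 13 were not called, with a summed level of 102870 to 186520 CPM in AIH, 139970 to 168160 in asymptomatic and 132970 to 176780 in control livers. AIH liver 3 alone gave the top of its range, and the other 4 AIH livers, at 109930, 105020, 130050 and 102870 CPM, lay below every library of both other groups. In these bulk samples fewer hepatocytes and less RNA per hepatocyte cannot be told apart. With size factors from the hepatocyte markers, which put the median of all genes at 0.32 against control and 0.46 against asymptomatic livers (-0.0134 and -0.0319 with TMM), Ppara (-1.18, adjusted p = 0.0165) and Vnn1 (-2.60, adjusted p = 0.00889) were still called lower than control, while Ppara was not called against asymptomatic livers (-0.61, adjusted p = 0.142). The part of the other cell types in the remaining difference was not tested.

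Likeness between genes was measured as the root mean square difference of their log2 CPM profiles over the 14 libraries, each centred on its own mean, among genes with a mean of at least 10 CPM. Ppara was nearest to Abca6 (0.341), Pdpr (0.374) and Zfp871 (0.411), and its nearest relative among the 9, Fabp1 (0.775), ranked 1919 of 8055. Cyp4a10 was nearest to Acot1 (1.15), Cyp4a14 (1.18) and Acot2 (1.21), and Cyp4a14 to Cyp4a10. Vnn1 was nearest to Gm4952 (0.713), Crat (0.758) and Retsat (0.796), and Fgf21 to Acot1 (0.877), Crat (0.935) and Vnn1 (1.10). Fabp1 was nearest to Phyh (0.268), Gcgr (0.272) and Letm1 (0.274), Plin2 to Tmem56 (0.303), Serinc2 (0.304) and Wrnip1 (0.315), Angptl4 to Net1 (0.440), Tmed5 (0.452) and Slc16a1 (0.460), and Pdk4 to Enc1 (0.952), Rab30 (1.11) and Sparcl1 (1.11). The profiles share library depth and the differences between groups, and genes that vary little score smaller differences.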

How the data were processed

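Each of the 14 deposited liver files lists unnormalized counts by Ensembl ID. Its 5 summary rows were left out of library sizes and tests. Per the submitters' processing notes, reads were handled with HISAT2 2.1.0, HTSeq 0.9.0, cutadapt 1.12 and FastQC 0.11.5, edgeR and R 4.0 are listed too, and both a human and a mouse build are given. The gene IDs are mouse, so positions are those of GRCm38. Annotation release and strand setting are not given in the sources used here. Between 28.8% and 37.0% of reads had several alignments and were not counted.

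Groups came from the phenotype labels, and replicate numbers follow accession order only. Counts were filtered with filterByExpr, scaled by TMM and tested with edgeR 4.0.16 (R 4.3.3), a two-sided quasi-likelihood F-test of all 14 libraries in 1 fit of group means. The Benjamini-Hochberg adjustment ran over all 14638 genes in each of 3 comparisons, and calls needed an adjusted p under 0.05. CPM are TMM-scaled, and standard errors were derived from the F statistic. The fit was tested on simulated data.

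Members and the 18 lists (237 genes tested) were chosen with earlier results of these data known. Named genes are the members, up to 4 genes with the smallest p in AIH against control from each list, and fixed pathway genes such as Rxra, Cpt1a and Klb. Some genes that this rule took are not reported here. Promoter genes with up to 2 mismatches and Crat were named after their values were seen. Alternatives were RLE factors, library totals, 2 other filters, DESeq2 1.42.0, limma-voom 3.58.1 with quality weights, sex, unaligned share or the Dbp to Arntl ratio as a term, subsets of libraries, and each library left out. Scaling by 15 hepatocyte markers and the division of libraries at a Dbp to Arntl log2 ratio of 2 were chosen after seeing the data. Figures were drawn with matplotlib 3.10.9.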

Additional observations from a re-analysis of the deposited data

Results flagged for a closer look

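In 7 of 27 gene and group pairs of the 9 genes, 1 library lay far from the rest of its group. Far means that the gap to its neighbour, as a share of the group's range, was past Dixon's 95% value. That value flags about 1 in 20 only for independent, normally distributed values. The CPM used are unlogged and the genes share their libraries, so the 7 pairs cannot be set against 1 in 20. Asymptomatic liver 2 was the far library in 4 of these, at 2784 CPM for Cyp4a10, 7851 CPM for Cyp4a14, 7.06 CPM for Fgf21 and 16.9 CPM for Pdk4. AIH liver 1 was far above the other AIH livers at 698 CPM for Cyp4a14 and 7.59 CPM for Fgf21. AIH liver 3 was far above at 229 CPM for Pdk4. The 4 control libraries gave no such case, although controls 2 and 4 were high together.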

How the results depend on the processing

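Depth limits Fgf21 most, whose lowest libraries hold 2 and 3 counts. No paired analysis was possible because replicate numbers follow accession order and pair no animals. For AIH against control, 3174 genes and 3 of the 9 members were called, for asymptomatic against control 0 and 0, and for AIH against asymptomatic 4355 and 3. The cause of each change below was not tested. Leaving out 1 library gave 2350 to 3425 genes and 3 to 4 members, 0 to 13 genes and 0 members, and 3317 to 4649 genes and 2 to 4 members. The 13 genes appeared without asymptomatic liver 2. DESeq2 called 3792 genes and 6 members in AIH against control, and 109 genes and 0 members in asymptomatic against control. Limma-voom called 1299 genes and 5 members in asymptomatic against control. A fit of only the 2 groups called 2705 genes and 5 members in AIH against control. In AIH against asymptomatic, the sex term left 1372 genes and 0 members, and the unaligned share 562 and 0. Males alone gave 555 genes and 0 members in AIH against control and 980 and 0 in AIH against asymptomatic, and females alone 839 genes and 1 member in the former. With a clock ratio above 2 the counts were 1940 genes in AIH against control and 9 in asymptomatic against control, and below 2 they were 783 genes in AIH against control and 1 gene and 0 members in AIH against asymptomatic. Below 2, AIH and asymptomatic livers are 1 library each and the spread comes from 2 controls alone, so these counts support nothing. With library totals alone, 89.8% of the genes called in AIH against control were higher, against 72.0% with TMM, and 88.9% against 64.2% in AIH against asymptomatic. Hepatocyte marker scaling gave 96.6% and 97.4% and put the median over all genes at 0.32 and 0.46 (log2).

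Directions that turned were mostly of values not called. In AIH against asymptomatic, Angptl4 turned to 0.0765 with library totals, 0.22 with the sex term, 0.20 in males and 0.36 with hepatocyte scaling, and ranged from -0.37 to 0.12 with 1 library left out. Plin2 turned to 0.0172 with limma-voom, 0.11 with the sex term, 0.40 in males and 0.13 with hepatocyte scaling. Fgf21 turned to -1.30 with the unaligned share, -0.29 in males, and -2.17 with a ratio below 2, and ranged from -1.03 (without AIH liver 1) to 1.92 (without asymptomatic liver 2) with 1 library left out. Cyp4a10 turned to 1.39 with limma-voom and 1.27 with a ratio above 2, and Cyp4a14 to 3.32 in both. With 1 library left out they ranged from -2.89 to 1.32 and from -4.01 to 3.15, positive only without asymptomatic liver 2. In AIH against control, Pdk4 turned to -1.52 with limma-voom, -0.83 in males, -1.49 with a ratio below 2, and ranged from -1.78 (without AIH liver 3) to 0.97 with 1 library left out, and with a ratio above 2 Fgf21 turned to 0.79 and Angptl4 to 0.10. In asymptomatic against control, Fabp1 turned to -0.0811 with the unaligned share and -0.12 with a ratio below 2, Ppara to 0.20 with a ratio below 2, and Angptl4 to 0.13 with a ratio above 2.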
